A study of Arabidopsis thaliana with 30 samples.

Results

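HYH (AT3G17609) and SPT (AT4G36930) are transcription factor genes of Arabidopsis thaliana that are known for carrying light and temperature signals, and their transcripts were followed from harvested seed to 48 h of light. Both genes were picked with earlier results of these data known, and their probe sets were then found by annotation: each gene is named by 1 probe set, so 2 of the 13356 genes that the annotation names singly are described here. Both probe set identifiers end in the plain suffix by which the array's maker marks a set that was not designed to be shared between transcripts. The reference gene table gives 4 transcripts for HYH and 1 for SPT, and the sources used here do not say which of the HYH transcripts the probe set reads.

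HYH is a basic leucine zipper (bZIP) protein and the closest relative of HY5, the factor that promotes light-dependent development. Both proteins are degraded in darkness through the COP1 ubiquitin ligase and accumulate in light, where they bind promoters of pigment and photosynthesis genes. SPT (SPATULA) is a basic helix-loop-helix (bHLH) protein related to the phytochrome interacting factors, first known from the carpel. In seed it is known as a repressor of germination whose action depends on light and temperature and reaches gibberellin synthesis.

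Whole Col-0 seed, 80 mg per sample, was measured on 30 one-colour Affymetrix arrays, 3 in each of 10 groups. In time order the groups were freshly harvested seed (H), dry seed (0 h), seed stratified in darkness at 4 °C for 1, 12 or 48 h (1 h S, 12 h S, 48 h S), and seed that was stratified for 48 h and then moved to 22 °C under continuous light for 1, 6, 12, 24 or 48 h (1 h SL to 48 h SL). The dry seed had ripened for 14 days by the treatment protocol and 15 days by the design text, and no group carried a mutation or a transgene. Light and warmth began together, water uptake and cold began together, and time runs along with both, so these cannot be told apart, and nothing in the labels says whether the replicates of a group were separate seed batches, so that p-values measure the spread between these samples only.

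Values are deposited intensities on a linear scale. A difference is the later group minus the earlier one on log2(intensity + 16), given with the standard error from the limma fit. The added 16 understates the change of dim genes. A gene is said to rise or fall in a comparison where the Benjamini-Hochberg adjusted p over all 22746 probe sets was under 0.05 and the difference was at least 1 on the log2 scale. Array medians ran from 11.8 to 19.4 and were highest in late light, replicates correlated at 0.985 or more, and 3 arrays per group limit the precision. In bulk seed, fewer cells of a type and less RNA per cell cannot be told apart.

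The transcripts of HYH rose in the cold, had fallen to near the array median after 6 h of light, and rose again by 24 h of light. Those of SPT rose in the later part of stratification, were highest at 12 h of light and stayed high in the seedling. Both genes thus rose over stratification, and in the light their changes differed. Over the 10 group means on the log2 scale, Pearson's r between the genes was 0.40, given as a description of means from shared arrays.

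**Figure D1:**
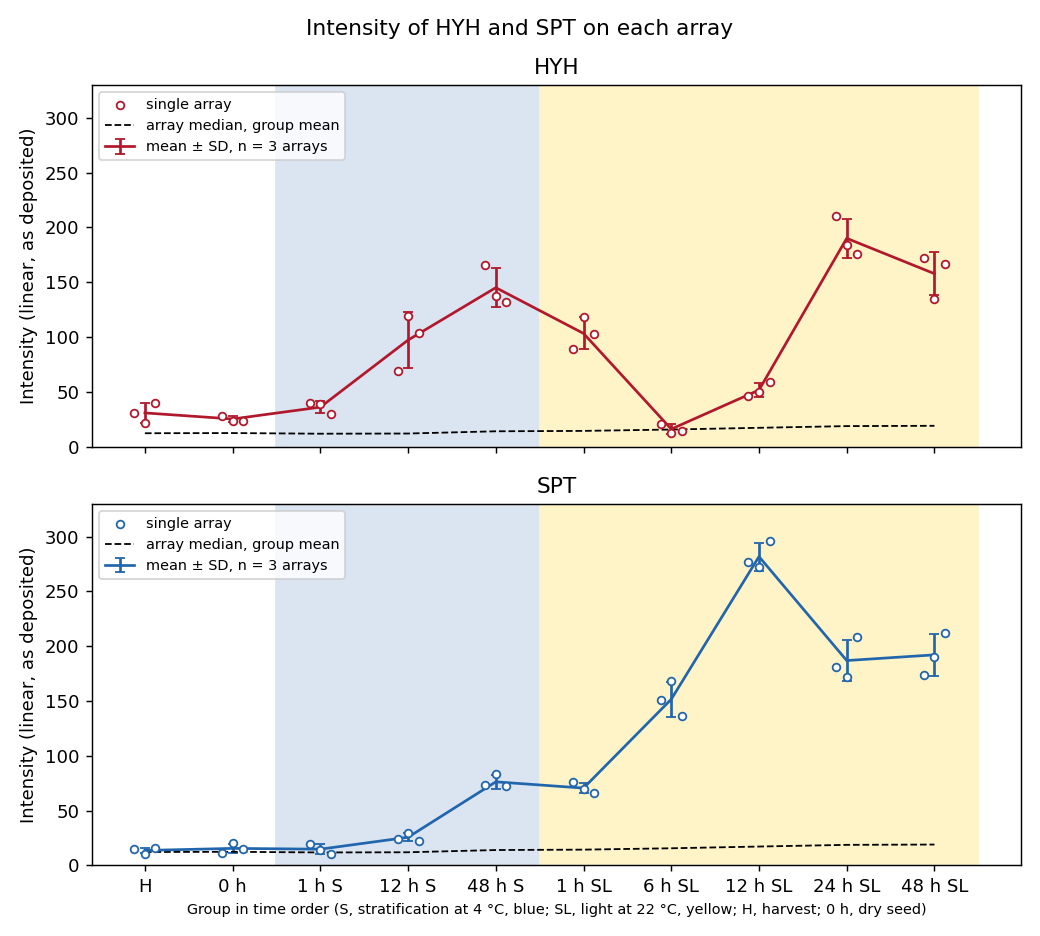
Deposited intensity of HYH (top) and SPT (bottom) in the 10 groups in time order. Open points are single arrays, lines and bars the mean ± SD of 3 arrays, and the dashed line the mean array median of the group. HYH has a peak of 145 at 48 h S, a trough of 16.1 at 6 h SL and a second peak of 190.1 at 24 h SL, while SPT has a single peak of 282 at 12 h SL.

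In seed before imbibition both genes were dim. HYH had intensities of 31.1, 21.2 and 40.1 in freshly harvested seed and 28.4, 23.5 and 23.9 in dry seed. SPT had 14.6, 10.7 and 15.7 in freshly harvested seed and 11.5, 20.2 and 14.9 in dry seed, close to the array medians of these groups, whose means were 12.3 and 12.4. The values of dry and freshly harvested seed overlapped for both genes. In dry against freshly harvested seed the difference was -0.16 ± 0.16 for HYH (95% confidence interval -0.50 to 0.17, adjusted p = 0.884) and 0.08 ± 0.11 for SPT (-0.15 to 0.31, adjusted p = 0.971). Neither was among the 0.321% of probe sets called in this step.

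The first hour of stratification brought no call for either gene. HYH had 40.1, 38.7 and 29.5 at 1 h S, all above the 23.5 to 28.4 of dry seed. Its difference of 0.33 ± 0.16 did not pass (adjusted p = 0.171). SPT had 19.7, 13.9 and 10.9 at 1 h S, which overlapped with dry seed, and its difference was -0.03 ± 0.11 (adjusted p = 0.922). Of all probe sets 0.514% were called in this step.

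Between 1 and 12 h of stratification HYH rose. It had 68.7, 119 and 104 at 12 h S, against 40.1, 38.7 and 29.5 at 1 h S. Every array at 12 h S lay above every array at 1 h S, although the 12 h S group itself had a wide spread, with a coefficient of variation of 26.6%. The difference was 1.10 ± 0.16 (limma, adjusted p = 1.60e-05), equal to a 2.69-fold ratio of mean intensities, in a step where 2.88% of probe sets were called higher. That call rests on replicate 2 of 12 h S, without which the difference was 0.96, under the size threshold.

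SPT was still dim at this time, at 2.14 times the mean array median of 12 h S. It had 24.4, 30.05 and 22.7 at 12 h S, against 19.7, 13.9 and 10.9 at 1 h S, and the groups did not overlap. The difference of 0.44 ± 0.11 passed the adjusted p (0.00532), as did 9.72% of all probe sets in the upward direction, but not the size threshold. With only these 2 groups in the fit it did not pass (adjusted p = 0.103).

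Between 12 and 48 h of stratification it was SPT that rose. It had 73.0, 83.7 and 72.1 at 48 h S, against 24.4, 30.05 and 22.7 at 12 h S, a 2.97-fold ratio of means with no overlap. The difference was 1.15 ± 0.11 (limma, adjusted p = 6.02e-09), in a step in which 10.1% of probe sets were called higher. HYH had 165, 138 and 132 at 48 h S, again above all 3 arrays of 12 h S. Its difference of 0.53 ± 0.16 passed the adjusted p (0.00890), as did 23.2% of probe sets in the upward direction, and fell short in size. With only these 2 groups in the fit its adjusted p was 0.107.

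The change of HYH differed from that of SPT in both of these steps. The difference between the changes, fitted array by array in the same model, was 0.66 ± 0.18 from 1 to 12 h S (adjusted p = 0.00984), with the larger gain in HYH. From 12 to 48 h S it was -0.62 ± 0.18 (adjusted p = 0.00602), with the larger gain in SPT. Fits to the groups of each step alone gave adjusted p = 0.0765 and 0.0623.

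Over the whole of stratification both genes rose. In 48 h S against dry seed HYH rose by 1.96 ± 0.16 (limma, adjusted p = 3.27e-10), a 5.74-fold ratio of means. SPT rose by 1.55 ± 0.11 (adjusted p = 2.80e-11). Of all probe sets 13.1% were called higher in this span, so a rise was common. The change of HYH minus that of SPT was 0.41 ± 0.18, with a 95% confidence interval of 0.04 to 0.77 and an adjusted p of 0.0511.

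The first hour of light and warmth left both genes uncalled. HYH had 88.8, 118 and 103 at 1 h SL, against 165, 138 and 132 at 48 h S. All 3 arrays in light lay below all 3 of the cold, but the difference of -0.43 ± 0.16 did not pass over all probe sets (adjusted p = 0.124). SPT had 75.8, 69.6 and 66.3 at 1 h SL, against 73.0, 83.7 and 72.1 at 48 h S, with overlap and a difference of -0.09 ± 0.11 (adjusted p = 1). In this step 0.787% of probe sets were called.

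Between 1 and 6 h of light the genes moved in opposite directions. HYH fell to 21.1, 12.4 and 14.7 at 6 h SL, against 88.8, 118 and 103 at 1 h SL. The mean intensity was 6.43-fold lower at 6 h SL, its lowest in the course, and stood at 1.03 times the mean array median, where intensities carry little information on how much transcript is left. The difference was -1.90 ± 0.16 (limma, adjusted p = 1.68e-09), and 4.39% of probe sets were called lower in this step. SPT had 151, 168 and 136 at 6 h SL, against 75.8, 69.6 and 66.3 at 1 h SL, a 2.15-fold ratio of means with no overlap. Its difference of 0.95 ± 0.11 passed the adjusted p (2.42e-07), as did 17.4% of probe sets in the upward direction, and lay just under the size threshold. The changes of the 2 genes differed by -2.85 ± 0.18 (adjusted p = 1.07e-11).

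From 6 to 12 h of light HYH began to return. It had 46.4, 49.5 and 59.1 at 12 h SL, against 21.1, 12.4 and 14.7 at 6 h SL, with no overlap. The difference of 1.08 ± 0.16 was called (limma, adjusted p = 1.28e-05), in a step in which 2.75% of probe sets were called higher, and it was a little under the size threshold (0.999) without replicate 2 of 6 h SL. SPT reached its highest level, with 276, 273 and 296 at 12 h SL, against 151, 168 and 136 at 6 h SL. Its difference of 0.83 ± 0.11 passed the adjusted p (2.85e-06), as did 14.4% of probe sets in the upward direction, but not the size threshold. The changes did not differ by the test (0.25 ± 0.18, 95% confidence interval -0.12 to 0.62, adjusted p = 0.421).

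Between 12 and 24 h of light the directions were again opposed. HYH rose to 210.4, 184 and 176 at 24 h SL, against 46.4, 49.5 and 59.1 at 12 h SL, a 3.68-fold ratio of means. The difference was 1.61 ± 0.16 (limma, adjusted p = 2.43e-08), and 4.92% of probe sets were called higher. SPT had 181, 172 and 208 at 24 h SL, against 276, 273 and 296 at 12 h SL, so that every array at 24 h SL was below every array at 12 h SL. Its difference of -0.56 ± 0.11 passed the adjusted p (2.82e-04), as did 19.9% of probe sets in the downward direction, and was short of the size threshold. The change of HYH exceeded that of SPT by 2.16 ± 0.18 (adjusted p = 9.56e-10).

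In the last step neither gene was called, among 7.65% of probe sets that were. HYH had 172, 135 and 166 at 48 h SL, against 210.4, 184 and 176 at 24 h SL. Its difference was -0.25 ± 0.16 (adjusted p = 0.276) although the arrays did not overlap. SPT had 173, 191 and 212 at 48 h SL, against 181, 172 and 208 at 24 h SL, and its difference was 0.04 ± 0.11 (adjusted p = 0.996).

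**Figure D2:**
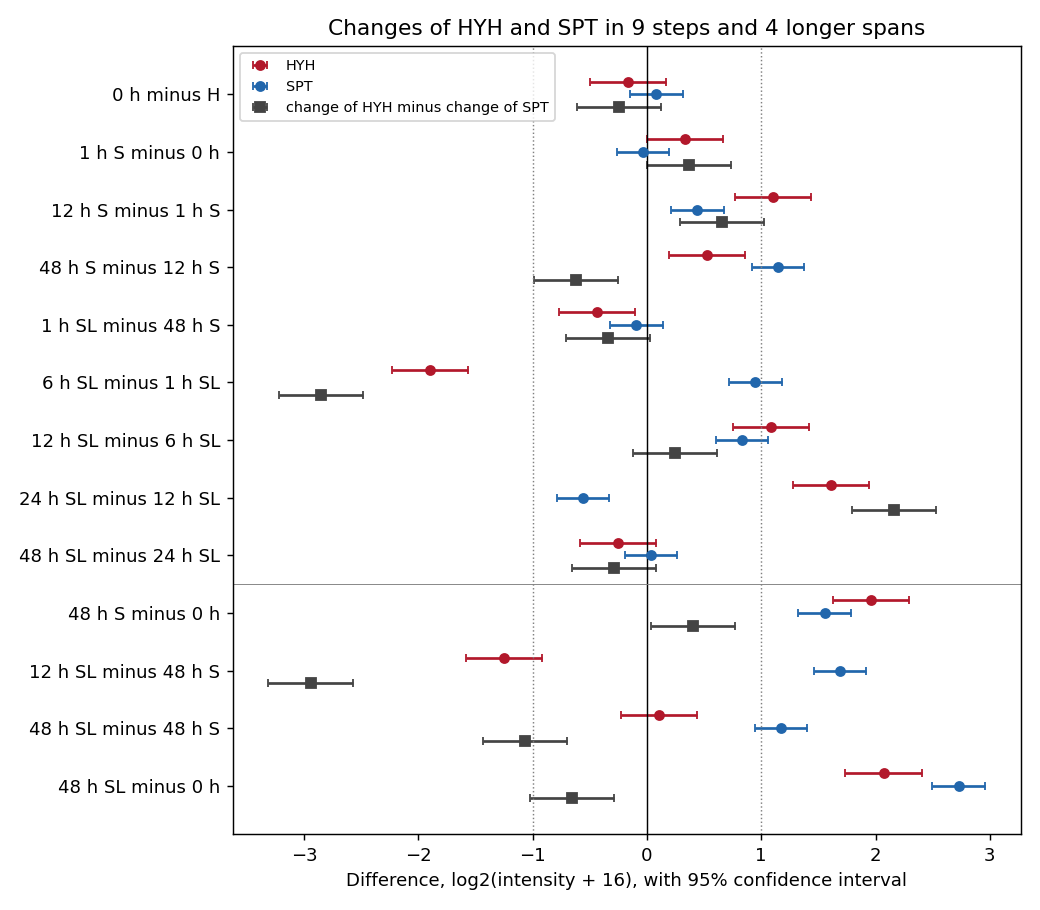
Differences of HYH, SPT and HYH minus SPT in the 9 steps between neighbouring groups and in 4 longer spans, on log2(intensity + 16), with 95% confidence intervals from the limma fit. Dotted lines mark a difference of 1 in either direction. The change of HYH lies below that of SPT at 6 h SL, by -2.85, and above it at 24 h SL, by 2.16.

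Several calls lay close to the size threshold. Quantile normalization left HYH at 0.89 for 12 h S against 1 h S and 0.98 for 12 h SL against 6 h SL, and SPT at 0.95 for 48 h S against 12 h S, all uncalled, while SPT was called for 6 h SL against 1 h SL with 1.01. A pseudocount of 64, which shrinks dim genes further, took these 3 calls away as well, and with them those of SPT for 48 h S against dry seed and 48 h SL against 48 h S and that of HYH for 12 h SL against 48 h S.

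The longer spans in the light show the same separation. In 12 h SL against 48 h S HYH fell, with means of 51.7 ± 6.63 and 145 ± 17.7 (SD, n = 3 arrays each), a difference of -1.25 ± 0.16 (limma, adjusted p = 5.16e-07), while 9.04% of probe sets were called lower. In the same span SPT rose, with means of 282 ± 12.7 and 76.3 ± 6.43, a difference of 1.69 ± 0.11 (limma, adjusted p = 7.28e-12), while 10.1% were called higher. The changes differed by -2.94 ± 0.18 (adjusted p = 1.87e-12).

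Over the whole light period HYH ended near where it began. Its mean was 158 ± 19.9 at 48 h SL and 145 ± 17.7 at 48 h S, a difference of 0.11 ± 0.16 (95% confidence interval -0.22 to 0.44, limma, adjusted p = 0.609). SPT had 192 ± 19.5 at 48 h SL and 76.3 ± 6.43 at 48 h S and rose by 1.17 ± 0.11 (adjusted p = 2.15e-09), among 15.2% of probe sets called higher. With each array centred on its median, which moved the median of all probe sets to -0.24, SPT had 0.95, under the size threshold, and HYH -0.11. A comparison of the endpoints alone thus holds no sign of the trough of HYH. The changes differed by -1.06 ± 0.18 (adjusted p = 1.37e-05).

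From dry seed to 48 h of light both genes rose, as did 19.7% of probe sets. HYH rose by 2.07 ± 0.16 (limma, adjusted p = 5.99e-11), with means of 158 ± 19.9 at 48 h SL and 25.3 ± 2.76 in dry seed. SPT rose by 2.73 ± 0.11 (adjusted p = 3.31e-16), with means of 192 ± 19.5 and 15.6 ± 4.40. The gain was larger for SPT, with a difference between the changes of -0.66 ± 0.18 (adjusted p = 0.00203).

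Ranked by mean, HYH was highest at 24 h SL, followed by 48 h SL, 48 h S, 1 h SL, 12 h S, 12 h SL, 1 h S, H, 0 h and 6 h SL. Neighbours in that order whose arrays overlapped were 48 h SL and 48 h S, 1 h SL and 12 h S, 1 h S and H, and H and 0 h. SPT was highest at 12 h SL, followed by 48 h SL, 24 h SL, 6 h SL, 48 h S, 1 h SL, 12 h S, 0 h, 1 h S and H. Overlapping neighbours were 48 h SL and 24 h SL, 48 h S and 1 h SL, 0 h and 1 h S, and 1 h S and H. Of the 45 pairs of groups 4 overlapped for HYH and 5 for SPT. Overlap was not counted over all probe sets, so how common such separation is was not tested. Levels of the 2 probe sets are not compared with each other, since probes differ in how strongly they bind.

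Few genes followed a course like that of HYH and many one like that of SPT. Likeness was measured by Pearson's r of the 10 group means on the log2 scale, over 6493 other probe sets that name a single gene and whose group means ranged by at least 1, and is given as a description. With HYH 5 of these (0.0770%) had r above 0.9 and 3 (0.0462%) had r under -0.9. The fifth of them lay at the threshold, with r = 0.9001, so the exact count depends on the setting. The lowest r among the same 5 was 0.878 after quantile normalization and 0.958 with a pseudocount of 64. With SPT 800 (12.3%) had r above 0.9 and 904 (13.9%) r under -0.9.

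**Figure D3:**
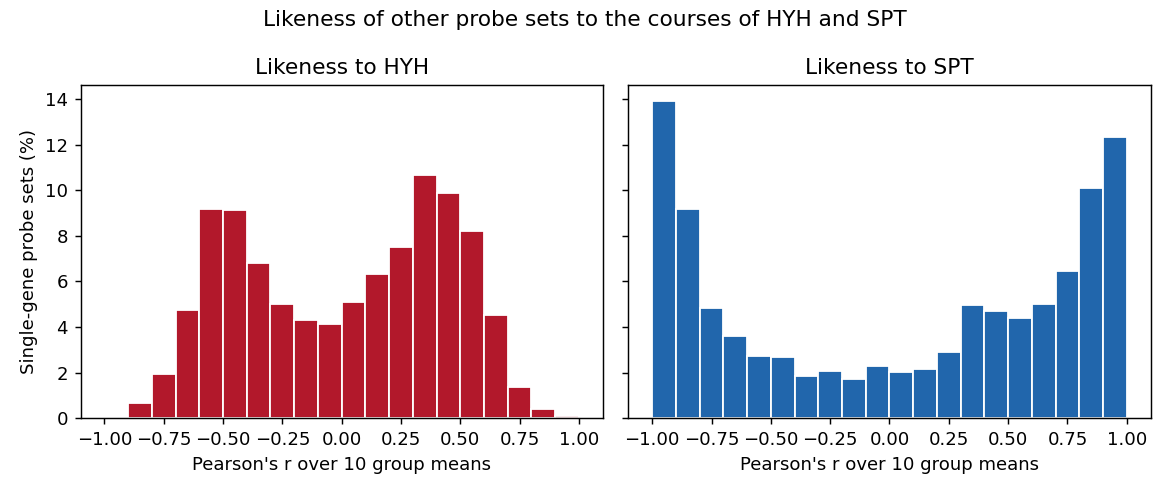
Distribution of Pearson's r between the course of HYH (left) or SPT (right) and the courses of 6493 single-gene probe sets, over 10 group means, as a percentage of probe sets in each bin of r. For SPT the outermost bins hold 12.3% and 13.9% of probe sets, for HYH 0.0770% and 0.0462%.

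The 5 genes most like HYH were AT2G31390 (r = 0.97), AT2G30620 (r = 0.96), AT1G59710 (r = 0.95), ALN (AT4G04955, r = 0.93) and AT3G57070 (r = 0.90). ALN encodes allantoinase, an enzyme that recovers nitrogen from purines. All had a lower mean at 6 h SL than at 1 h SL and a higher mean at 24 h SL than at 12 h SL. AT2G30620 had 122 ± 4.70 at 6 h SL against 649 ± 89.7 at 1 h SL, and 969 ± 87.5 at 24 h SL against 375 ± 9.22 at 12 h SL. ALN had 7.02 ± 0.396 at 6 h SL against 28.5 ± 2.80 at 1 h SL, and 69.3 ± 7.66 at 24 h SL against 19.7 ± 2.20 at 12 h SL.

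The 5 genes most like SPT were AT1G56050, AT5G24260, AT1G47640, AT2G43800 and AT2G33255, with r of 0.99 each. None of them has a name in the tables used here. AT2G33255 had its highest mean at 12 h SL as SPT did, 423 ± 17.1 against 212 ± 3.41 at 6 h SL, and AT1G56050 had 332 ± 37.2 at 12 h SL against 248 ± 34.3 at 6 h SL.

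**Figure D4:**
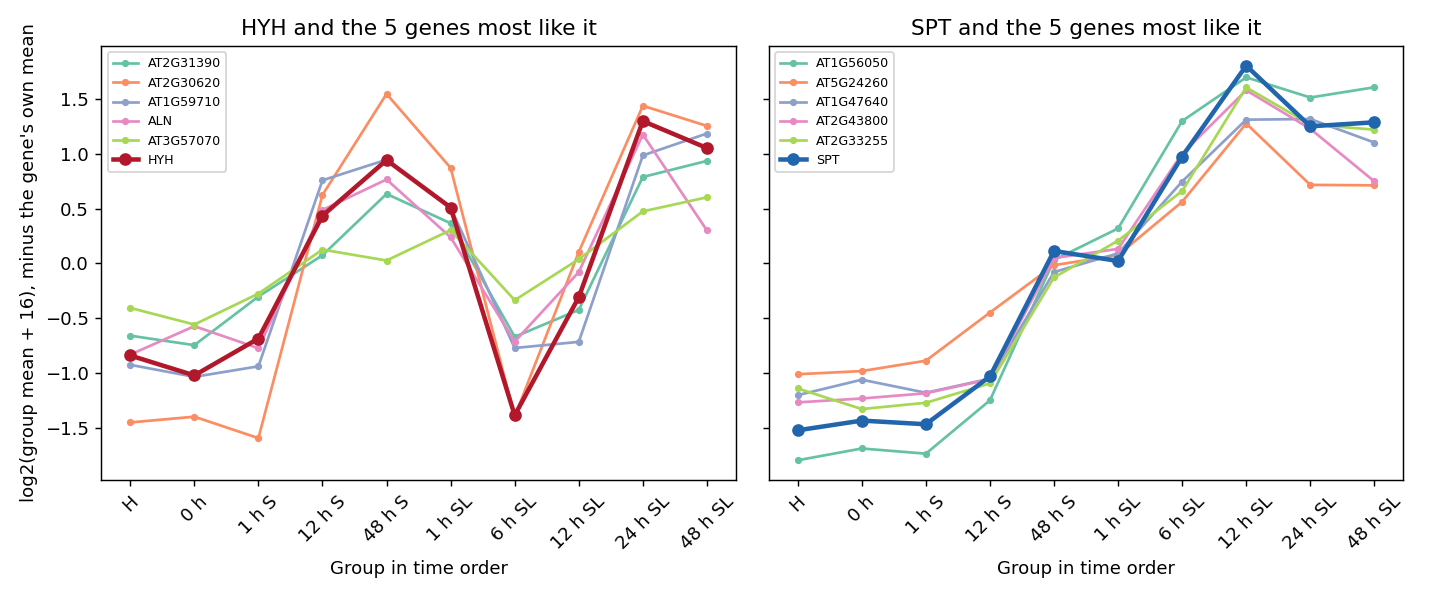
Courses of HYH (left) and SPT (right), thick lines, with the 5 genes most like each, as log2 of the group mean plus 16 minus the mean of that gene over the 10 groups. The genes on the left share a trough at 6 h SL. Those on the right share a climb that reaches its height at 12 h SL, or at 24 h SL for AT1G47640.

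The calls made for HYH were counted over all probe sets, as a description of a pattern built from HYH itself. Of 22746 probe sets 999 were called lower at 6 h SL than at 1 h SL and 1118 higher at 24 h SL than at 12 h SL. Both calls were made for 104 (0.457%), and 41 (0.180%) were also called higher at 48 h S than in dry seed. The 3 comparisons share no arrays. Beside HYH, the 41 include MT1C (AT1G07610), a metallothionein gene, GSTU27 (AT3G43800), a glutathione S-transferase gene, and EXO (AT4G08950), named here after their values were seen because they have a symbol other than a locus number. MT1C had a mean of 1605 at 48 h S, 1221 at 1 h SL, 235 at 6 h SL, 249 at 12 h SL and 1256 at 24 h SL.

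Other genes of the light pathway could be followed only in part, since the annotation used here names few of them. Of the lists that were drawn up, 0 of 13 photoreceptor genes, 2 of 19 genes for repressors of light signalling, 2 of 19 genes for its transcription factors and cofactors and 2 of 20 genes for phytochrome interacting factors and relatives of SPT were named by a single-gene probe set, HYH and SPT included. Named as well were 4 of 27 gibberellin genes, 2 of 20 pigment and photoprotection genes of the kind known as targets of HY5, and 2 of 25 genes for dormancy, abscisic acid and cold.

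FHL (AT5G02200), which helps phytochrome A into the nucleus, had its highest means in the same groups of the cold and of late light as HYH. It had 34.2 ± 2.44 at 48 h S against 8.70 ± 0.384 at 12 h S and rose (1.02 ± 0.09, limma, adjusted p = 1.09e-09), and it had 19.2 ± 0.401 at 24 h SL against 9.68 ± 0.807 at 12 h SL, short of the size threshold at 0.46 ± 0.09. At 1 h SL it had 15.3 ± 6.52 and at 6 h SL 7.80 ± 0.292. Its means at 12 h S, 6 h SL, 12 h SL and 48 h SL lay below the mean array medians of 12.0, 15.7, 17.2 and 19.1. The sizes of its changes therefore depend on dim signal and the added 16. Unlike HYH it fell over the light period as a whole, with 8.22 ± 0.460 at 48 h SL against 34.2 ± 2.44 at 48 h S (-1.05 ± 0.09). CUL4 (AT5G46210), the scaffold of the ubiquitin ligase that works with COP1 and DET1, also fell over that span, with 289 ± 11.1 against 811 ± 48.7 (-1.44 ± 0.08, limma, adjusted p = 2.37e-13). CSN5B (AT1G71230), of the COP9 signalosome, was not called in any comparison and had group means of 19.4 to 31.0.

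ALC (ALCATRAZ, AT5G67110), the closest bHLH relative of SPT and known from fruit opening, had its peak in the same group as SPT. Its means were 8.24 ± 2.11 at 1 h SL, 32.3 ± 4.07 at 6 h SL, 107 ± 8.51 at 12 h SL, 47.8 ± 6.28 at 24 h SL and 32.9 ± 6.03 at 48 h SL. It rose between 6 and 12 h SL by 1.35 ± 0.10 (limma, adjusted p = 6.51e-10) and in 12 h SL against 48 h S by 2.14 ± 0.10 (adjusted p = 3.78e-14), where SPT rose by 1.69. Over stratification ALC was not called, with 12.2 ± 5.09 at 48 h S against 6.54 ± 0.144 in dry seed (0.30 ± 0.10), where SPT rose. Both means lay below the mean array medians of 14.1 and 12.4, so this contrast with SPT rests on dim signal. Over the 10 group means r between ALC and SPT was 0.90, in a set of probe sets of which 12.3% had r above 0.9 with SPT.

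SPT is known to reach gibberellin synthesis, but the gibberellin genes named here are for the receptors and SLY1, and none is for synthesis. The receptor gene GID1A (AT3G05120) fell over the light period and GID1C (AT5G27320) over stratification as a whole. GID1A was also lower late in the cold, with 278 ± 32.1 at 48 h S against 577 ± 35.9 at 12 h S. In that step, where SPT rose, 1 of the 4 gibberellin genes was called lower. GID1A had 27.8 ± 4.58 at 48 h SL against 278 ± 32.1 at 48 h S and fell by 2.75 on the log2 scale (limma, adjusted p = 3.11e-16). Its r with SPT over the group means was -0.94, which was common, since 13.9% of the probe sets compared had r under -0.9 with SPT. GID1C had 11.9 ± 2.47 at 48 h S against 51.4 ± 7.63 in dry seed (-1.27 ± 0.10, adjusted p = 3.21e-10). GID1B (AT3G63010), the third receptor gene, was dim, with 14.5 ± 2.59 at 48 h SL against 4.98 ± 0.440 at 48 h S, and was not called. SLY1 (AT4G24210), whose F-box protein marks DELLA repressors for degradation, was not called either, with 168 ± 22.5 at 48 h S against 79.6 ± 21.0 in dry seed (0.96 ± 0.14).

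Of the pigment genes, PORB rose first in the step in which HYH rose again, and DFR in the last step. PORB (AT4G27440), for a light-dependent enzyme of chlorophyll synthesis, had means of 8.63 ± 0.161 at 6 h SL, 183 ± 33.7 at 12 h SL, 642 ± 71.4 at 24 h SL and 3889 ± 467 at 48 h SL, and rose in each of these 3 steps, by 1.73 at 24 h SL and 2.57 at 48 h SL. DFR (AT5G42800), of anthocyanin synthesis, stayed under 10 until 24 h SL and had 1026 ± 77.5 at 48 h SL against 5.34 ± 0.159 at 24 h SL (limma, adjusted p = 1.04e-27). The levels of PORB at 6 h SL and of DFR at 24 h SL lay below the array median, so the sizes of the rises that start there depend on the dim signal and the added 16 and are not given. While HYH was at its first peak, at 48 h S, PORB had 11.1 ± 2.26 and DFR 5.71 ± 0.106, below the array median.

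COR27 (AT5G42900), a cold-regulated gene, fell over stratification as a whole, where HYH rose. Within stratification the 2 genes did not run opposite throughout. In the step from 1 to 12 h S, where HYH rose, COR27 had 583 ± 90.6 against 365 ± 40.6. Its difference of 0.65 ± 0.13 passed the adjusted p (limma, 6.98e-04) but not the size threshold. In the light COR27 fell at 6 h SL and rose at 12 h SL as HYH did, and fell at 24 h SL where HYH rose. It had 20.7 ± 4.30 at 6 h SL against 86.8 ± 3.30 at 1 h SL (-1.49 ± 0.13, limma, adjusted p = 2.67e-09) and rose to 120.1 ± 17.3 at 12 h SL (1.89 ± 0.13). At 24 h SL it had 9.64 ± 1.68, its lowest mean, and had fallen by 2.40. Before light, COR27 had 138 ± 25.3 at 48 h S against 482 ± 56.0 in dry seed. Its r with HYH over the 10 group means was -0.41. COR15A (AT2G42540) was not called in any comparison.

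**Figure D5:**
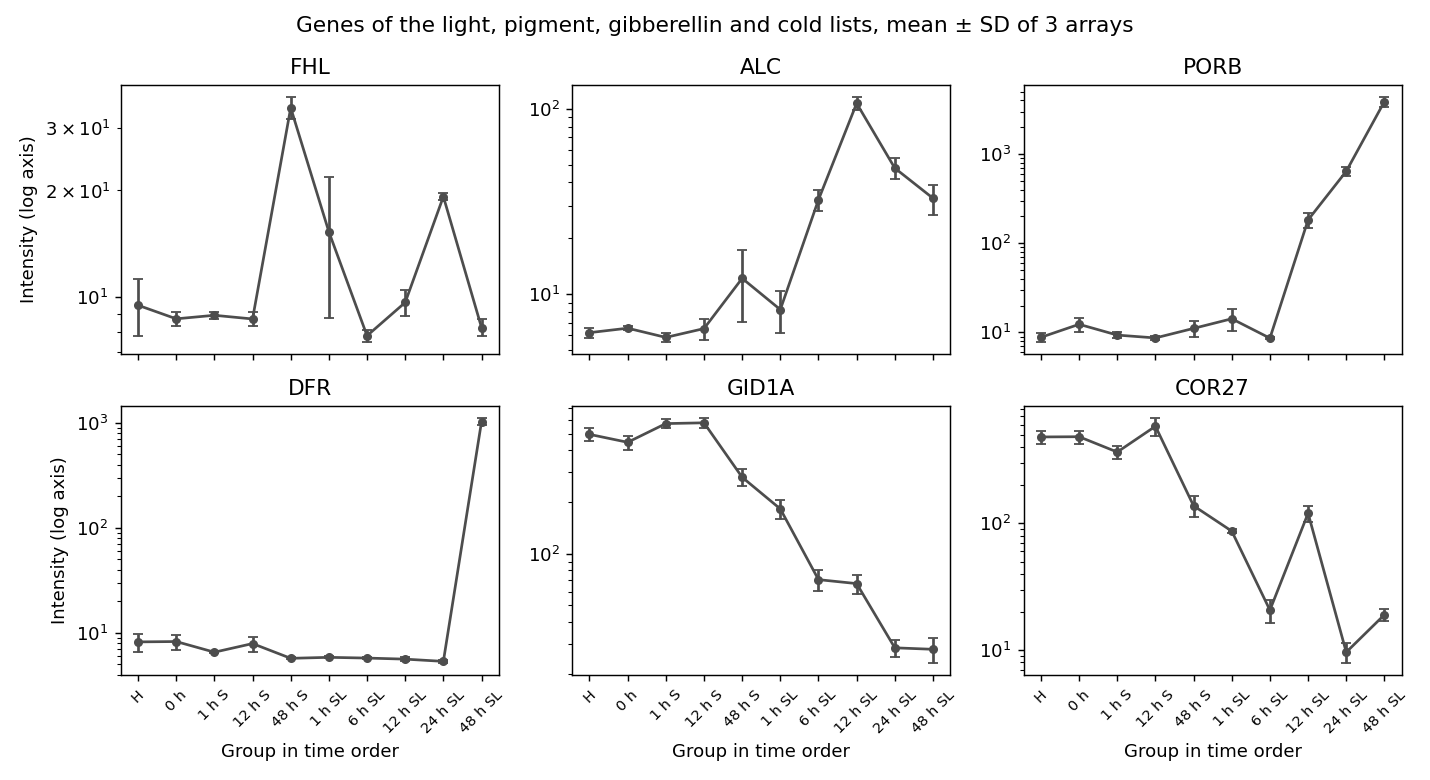
Intensity, on a log axis, of 6 genes of the light, pigment, gibberellin and cold lists in the 10 groups in time order, as mean ± SD of 3 arrays. ALC peaks at 12 h SL with 107, and DFR is above 10 at 48 h SL alone. FHL has peaks of 34.2 at 48 h S and 19.2 at 24 h SL, the latter close to the array median.

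The families of the 2 genes were followed through their numbered members. Of these a single-gene probe set named 22 of 46 bZIP genes and 7 of 22 bHLH genes. Among the 22 bZIP genes, 1 was called higher and 2 lower over stratification, beside 13.1% of all probe sets called higher and 8.23% called lower. The median difference was -0.03, beside -0.04 over all probe sets. Some of the 22 stayed below the array median throughout, such as FD, with 5.51 ± 0.0341 in dry seed and 4.95 ± 0.0494 at 48 h S. The riser was bZIP44 (AT1G75390), with 441 ± 61.1 at 48 h S against 5.97 ± 0.254 in dry seed. EEL (AT2G41070), which acts on genes of the late embryo, fell, with 26.0 ± 2.17 against 698 ± 76.4. In 48 h SL against 48 h S 2 bZIP genes were called higher and 3 lower, beside 15.2% of all probe sets called higher and 16.5% called lower, and the fallers included BZIP60 (AT1G42990) and BZIP17 (AT2G40950), of the stress response of the endoplasmic reticulum. BZIP60 had 183 ± 28.4 at 48 h SL against 704 ± 49.1 at 48 h S.

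Of the 7 numbered bHLH genes that were named, 0 were called higher and 2 lower over stratification, where SPT rose. In 48 h SL against 48 h S 2 were called higher and 0 lower. The shares over all probe sets were 13.1% higher and 8.23% lower over stratification, and 15.2% higher and 16.5% lower in the light span. The risers were bHLH115 (AT1G51070), with 488 ± 48.6 at 48 h SL against 24.0 ± 3.29 at 48 h S, and bHLH34 (AT3G23210), with 98.3 ± 9.59 against 18.2 ± 0.749. The fallers over stratification were bHLH121 (AT3G19860), with 199 ± 26.3 at 48 h S against 671 ± 47.6 in dry seed, and bHLH104 (AT4G14410), with 168 ± 15.8 against 526 ± 80.4.

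The labelled tissue was checked with what the annotation names of its markers. Of 15 storage protein and oleosin genes only OLEO3 (AT5G51210) was named, with 640.2 ± 66.9 in dry seed and 52.2 ± 12.1 at 48 h SL. BAN, of the seed coat, and AGL62, of the early endosperm, the only named members of their lists of 9 and 8 genes, had group means of 3.98 to 4.58 and 5.44 to 9.60, below the array median throughout. Whether the share of the seed's tissues in the RNA changed along the course, and its part in the results for HYH and SPT, was not tested.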

How the data were processed

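Biotin-labelled RNA (400 ng per sample) was hybridized to 1 array per sample. The authors deposited probe set intensity values on a linear scale, already summarized and normalized. MAS5, RMA and Partek are named per the submitters' processing notes, with no version and no word on which made the values. Detection calls were not used. Of 22810 probe sets 64 controls were left out. Of the remaining 22746, 13513 name a single gene, 503 several and 8730 none, and 13436 of the single-gene sets matched the reference (RefSeq, TAIR10.1). For a listed gene with several probe sets the brightest was taken. No sequences of the genes, promoters or probes were used here.

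The log2 values, computed from the deposited intensities after 16 was added, were fitted with 1 mean per group over all 30 arrays (limma 3.58.1 in R 4.3.3, lmFit and eBayes, 20 residual and 1.21 prior degrees of freedom). The 13 comparisons were 9 steps and 4 spans, with p adjusted within each. HYH minus SPT was fitted as an added row. The fit was also run on simulated data, with no outcome given here. Named genes were both members, the 5 genes most like each, and list members (up to 4 examples a list, by size of change). Members and lists were chosen with earlier results of these data known. Alternatives were other pseudocounts, quantile normalization, median centring, a filter at an intensity of 32, only the groups compared, a replicate block, a trended robust prior, and leaving out each array. Figures were made with Python 3.11.15 and matplotlib 3.10.9.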

Additional observations from a re-analysis of the deposited data

How the results depend on the processing

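Under the alternatives 521 values of HYH, SPT and their difference in change kept their direction and side of the threshold. The rest (15 no longer called, 3 newly called, 7 with the sign turned) came from the settings below. With a pseudocount of 64 the differences of HYH were 0.68 at 12 h S minus 1 h S, 0.53 at 12 h SL minus 6 h SL and -0.85 at 12 h SL minus 48 h S, those of SPT 0.64 at 48 h S minus 12 h S, 0.82 at 48 h S minus 0 h and 0.87 at 48 h SL minus 48 h S, and HYH minus SPT was -0.78 at 48 h SL minus 48 h S, none of them then called for size, and it turned to -0.15 at 12 h SL minus 6 h SL, uncalled in both. With a pseudocount of 1 SPT was called at 6 h SL minus 1 h SL (1.09). Quantile normalization gave HYH 0.89 at 12 h S minus 1 h S and 0.98 at 12 h SL minus 6 h SL, and SPT 0.95 at 48 h S minus 12 h S, uncalled, and SPT 1.01 at 6 h SL minus 1 h SL, called. Median centring moved the median of all probe sets to -0.24 at 48 h SL minus 48 h S, where SPT had 0.95, uncalled, and HYH -0.11, uncalled as before. The fall of HYH at 6 h SL and its rise at 24 h SL were called under every alternative run.

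Leaving out single arrays gave ranges of 0.96 to 1.30 for HYH at 12 h S minus 1 h S, 0.999 to 1.19 for HYH at 12 h SL minus 6 h SL, 0.88 to 1.02 for SPT at 6 h SL minus 1 h SL (called without replicate 3 of 6 h SL) and -1.19 to -0.95 for HYH minus SPT at 48 h SL minus 48 h S (uncalled without replicate 1 of 48 h S or replicate 2 of 48 h SL). For SPT, uncalled throughout, they were -0.021 to 0.18 at 0 h minus H, -0.15 to 0.070 at 1 h S minus 0 h and -0.033 to 0.11 at 48 h SL minus 24 h SL. Same-numbered arrays of different groups did not deviate together (mean correlation -0.01 over 135 pairs, 6 of 30 arrays closest to their own number), so the numbers are not taken to pair samples, and with the replicate block HYH kept -1.90 at 6 h SL minus 1 h SL, with no call of either gene changed.

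Counts of called probe sets moved by over 1.5 times as follows. With a pseudocount of 64 they were 38 against 73 at 0 h minus H, 40 against 117 at 1 h S minus 0 h, 482 against 857 at 12 h S minus 1 h S, 2640 against 4186 at 48 h S minus 12 h S, 101 against 179 at 1 h SL minus 48 h S, 1047 against 1974 at 6 h SL minus 1 h SL, 471 against 987 at 12 h SL minus 6 h SL, 861 against 1642 at 24 h SL minus 12 h SL, 898 against 1739 at 48 h SL minus 24 h SL, 3163 against 4846 at 48 h S minus 0 h, 2655 against 4365 at 12 h SL minus 48 h S and 4695 against 7218 at 48 h SL minus 48 h S. With a pseudocount of 1 they were 133 against 73 at 0 h minus H, 345 against 117 at 1 h S minus 0 h, 295 against 179 at 1 h SL minus 48 h S, 1692 against 987 at 12 h SL minus 6 h SL, 2649 against 1642 at 24 h SL minus 12 h SL and 2840 against 1739 at 48 h SL minus 24 h SL. With only the groups compared they were 28 against 73 at 0 h minus H, 9 against 117 at 1 h S minus 0 h and 116 against 179 at 1 h SL minus 48 h S. Without replicate 3 of dry seed 212 were called at 1 h S minus 0 h, and there quantile normalization gave 52 higher and 40 lower, against 82 and 35 without it. Of the 5 genes most like HYH 5, 3 and 5 stayed among the 5 with a pseudocount of 1, of 64 and after quantile normalization, and of those most like SPT 3, 4 and 2.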
